A study of Homo sapiens with 6 samples.

Results

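The genes described here code for the folding and degradation machinery of the endoplasmic reticulum (ER). They are 32 symbols taken from a list of ER chaperones, disulfide isomerases, unfolded protein sensors, degradation factors and translocon subunits, and all 32 were found among the 54261 symbols of a table of read counts per gene. Of these, 29 passed the filter on low counts that 15391 genes of the table passed. The study sequenced RNA from the human lung cancer line PC9/GR in 2 groups of 3 libraries. The si-MYLK-AS1 group received a small interfering RNA that targets the long non-coding RNA MYLK-AS1, transcribed antisense to the myosin light chain kinase gene, and the si-NC group a control siRNA. Both groups are the same line with no other agent named in the labels, and the series title names resistance to EGFR inhibitors and the metabolism of glutamine. The labels do not say whether the 3 repeats of a group were separate cultures, so p-values measure only the spread between these libraries, which may be technical.

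Proteins of the secretory pathway enter the ER through the SEC61 channel and fold there with the help of HSP70 and HSP90 type chaperones, lectin chaperones that read N-glycans, and disulfide isomerases. When unfolded protein accumulates, the sensors IRE1 (gene ERN1), ATF6 and PERK (gene EIF2AK3) start the unfolded protein response. IRE1 splices the mRNA of the transcription factor XBP1, ATF6 is cut to release a transcription factor, and PERK phosphorylates the initiation factor eIF2 alpha, which slows translation. Proteins that fail to fold are trimmed by EDEM mannosidases, recognised by lectins such as OS9 and passed to the membrane ubiquitin ligase HRD1 (gene SYVN1) with its partner SEL1L for degradation by the proteasome.

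The ER stress response element (ERSE) is bound by ATF6 together with the factor NF-Y, and was searched as CCAAT and CCACG with any 9 bases between them. The shorter ERSE-II was searched as ATTGG and CCACG with any 1 base between them. These elements are shown because they recur in the promoters of some members, 10 of the 29 with a promoter window described below. They were chosen for genes of this kind, so the higher shares among the members below are a description and not a test. Windows from 250 bases before to 50 bases after the annotated start were taken from RefSeq (GRCh38.p14), and 29 of the 32 members had at least 1 window. Searched on both strands, an exact ERSE was present in 7 of these 29 members (24.1%), against 25 of all 27305 genes with a window (0.0916%). ERSE-II was present in 3 of 29 members (10.3%), against 19 of all genes (0.0696%). No gene of the list held both, and no match overlapped a match of the other element. The matches follow 5′ to 3′ on the strand of the gene with 5 bases on each side, the element in capitals. Where it lies on the opposite strand, the letters printed are its reverse complement.
HSPA5 ERSE: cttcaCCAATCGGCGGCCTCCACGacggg
XBP1 ERSE: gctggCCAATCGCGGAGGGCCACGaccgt
PDIA6 ERSE: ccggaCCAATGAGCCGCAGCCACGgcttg
CANX ERSE: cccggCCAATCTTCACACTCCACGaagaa
HSP90B1 ERSE, first: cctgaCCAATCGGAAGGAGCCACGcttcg
HSP90B1 ERSE, second, reverse complement: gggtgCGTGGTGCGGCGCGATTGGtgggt
CALR ERSE, reverse complement: ccacgCGTGGTCGACCATCATTGGtcggt
CRELD2 ERSE, reverse complement: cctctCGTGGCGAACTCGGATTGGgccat
HERPUD1 ERSE-II: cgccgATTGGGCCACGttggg
SDF2L1 ERSE-II, reverse complement: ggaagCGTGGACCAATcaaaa
HYOU1 ERSE-II, first, reverse complement: cgtgaCGTGGTCCAATcccag
HYOU1 ERSE-II, second, reverse complement: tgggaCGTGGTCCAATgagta
A match is a description of these letters and not a binding site, and a window without a match may hold an inexact element.

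The window of HSPA5, the member with the highest level in the si-MYLK-AS1 libraries per kilobase of exon, lies at chr9:125241294-125241593 on the minus strand of GRCh38.p14. Its exact ERSE, in capitals, lies at positions -66 to -48 from the start.
HSPA5 promoter: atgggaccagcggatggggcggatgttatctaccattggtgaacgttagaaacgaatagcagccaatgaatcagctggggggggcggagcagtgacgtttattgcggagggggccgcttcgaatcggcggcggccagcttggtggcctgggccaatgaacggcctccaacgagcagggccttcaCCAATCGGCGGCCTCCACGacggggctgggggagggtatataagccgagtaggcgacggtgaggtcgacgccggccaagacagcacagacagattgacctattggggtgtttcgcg
The window of HERPUD1, a degradation gene that rose, lies at chr16:56931892-56932191 on the plus strand. Its capitals mark a reverse-complement match to TGATGNAA, the letters of the element bound by ATF4 dimers, at -176 to -169, and the ERSE-II at -117 to -107.
HERPUD1 promoter: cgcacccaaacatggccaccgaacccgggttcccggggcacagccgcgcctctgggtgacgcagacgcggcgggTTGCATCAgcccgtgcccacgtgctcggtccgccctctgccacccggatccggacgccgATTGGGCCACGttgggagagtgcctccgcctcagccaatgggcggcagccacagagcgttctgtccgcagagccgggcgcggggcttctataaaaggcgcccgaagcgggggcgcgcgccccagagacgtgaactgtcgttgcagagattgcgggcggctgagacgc
TGATGNAA was present in the windows of 1 of 29 members and of 4.46% of all genes. TGACGTGG, the core of the element bound by XBP1, was present in HYOU1, overlapping its first ERSE-II, and in DNAJC10, 2 of 29 members, and in 0.927% of all genes. The windows of EDEM1, DNAJB9 and EIF2AK3, which also rose, held no match to a searched element and are not printed in full.

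MYLK-AS1 had 0, 5 and 4 reads in the si-MYLK-AS1 libraries, against 20, 16 and 19 reads in the si-NC libraries, and the groups did not overlap. Its log2 fold change was -2.43 (SE 0.60, adjusted p = 0.00326, edgeR's quasi-likelihood test). Total reads ran from 7551303 to 11055408 in the si-MYLK-AS1 libraries and from 8867818 to 10978513 in the si-NC libraries. A count of 3, used as the floor for 0 reads, stands for 0.274 to 0.410 CPM (read counts scaled to a common normalised library size). Correlations of log2 CPM were 0.981 or more within each group and at most 0.962 between groups. The second principal component (12.2% of the variance) set si-MYLK-AS1 replicate 3 apart from the other libraries of its group. Of 10 lung epithelial markers, KRT7, KRT8 and KRT18 were abundant, SFTPB had no reads, and NKX2-1, NAPSA, EPCAM and EGFR stayed under 4 CPM in every library. The epithelial markers summed to between 7626 and 8230 CPM in the si-MYLK-AS1 libraries and between 11849 and 13871 CPM in the si-NC libraries. KRT7, KRT8 and KRT18 carried this sum and fell, as did CDH1 and EPCAM, while KRT19 rose (log2 fold change 0.37, adjusted p = 0.00816) and NAPSA and EGFR did not pass. Among markers of other cells PTPRC and CD3E had no reads, and CD68 made up most of their sum of 287 to 332 CPM in the si-MYLK-AS1 libraries and 190 to 268 CPM in the si-NC libraries. The part of these differences in the results below was not tested.

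The ER genes moved in both directions in the si-MYLK-AS1 libraries against si-NC. The labels name no other siRNA against MYLK-AS1, so effects of its loss and other effects of the siRNA cannot be told apart. Of the 29 tested members, 10 rose, 7 fell and 12 did not pass the threshold (adjusted p of 0.05, quasi-likelihood test of edgeR). The members that rose include the chaperone HSPA5, the sensor EIF2AK3, the transcription factor XBP1 and the degradation genes EDEM1 and HERPUD1. Those that fell include the ubiquitin ligase SYVN1, the mannosidase-like EDEM3 and the co-chaperone DNAJB11. The plot of log2 fold changes by role shows calls in both directions inside the chaperone group and inside the degradation group.

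**Figure D1:**
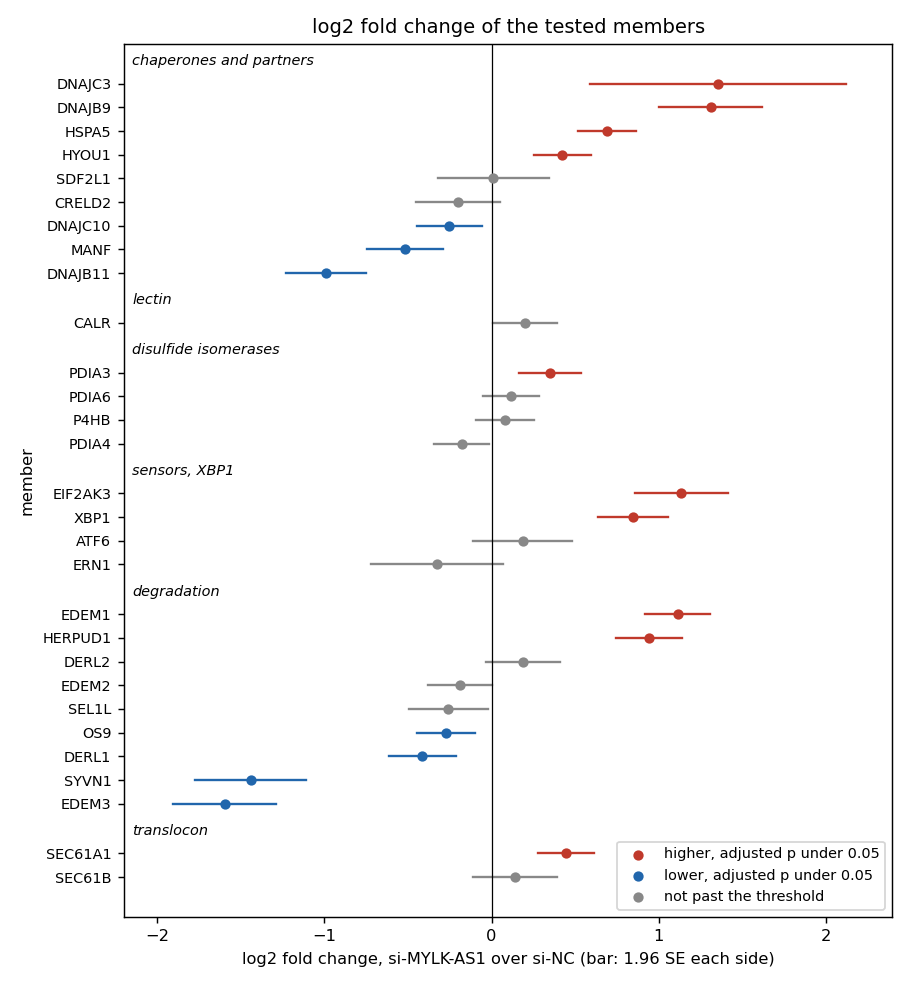
log2 fold change (si-MYLK-AS1 over si-NC, horizontal axis) of the 29 tested members by role, each with its approximate 95% interval. Red points rose and blue points fell at an adjusted p under 0.05, from DNAJC3 at 1.36 to EDEM3 at -1.60, and grey points did not pass.

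The count is to be read against a comparison in which 42.0% of all tested genes passed, 21.3% upward and 20.7% downward. Among the members 58.6% passed, 34.5% upward and 24.1% downward. Among genes averaging 10 CPM or more, a level chosen after the data were seen, 49.5% of all 9491 genes passed, against 57.1% of 28 members. That floor does not match the members to genes of equal level, and several members lie far above it. Log2 fold changes of 0.5 or more upward were called for 7 members (14.7% of all tested genes), and of -0.5 or less for 4 members (16.0% of all tested genes). The CPM of the groups did not overlap for 22 of 29 members, against 52.2% of all tested genes. The median log2 fold change of the members was 0.12, with a range from -1.60 to 1.36, against -0.000504 over all tested genes. Without si-MYLK-AS1 replicate 3 there were also 10 members up and 7 down. In RNA of whole cultures, a change in every cell and a change in a share of the cells cannot be told apart.

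**Figure D2:**
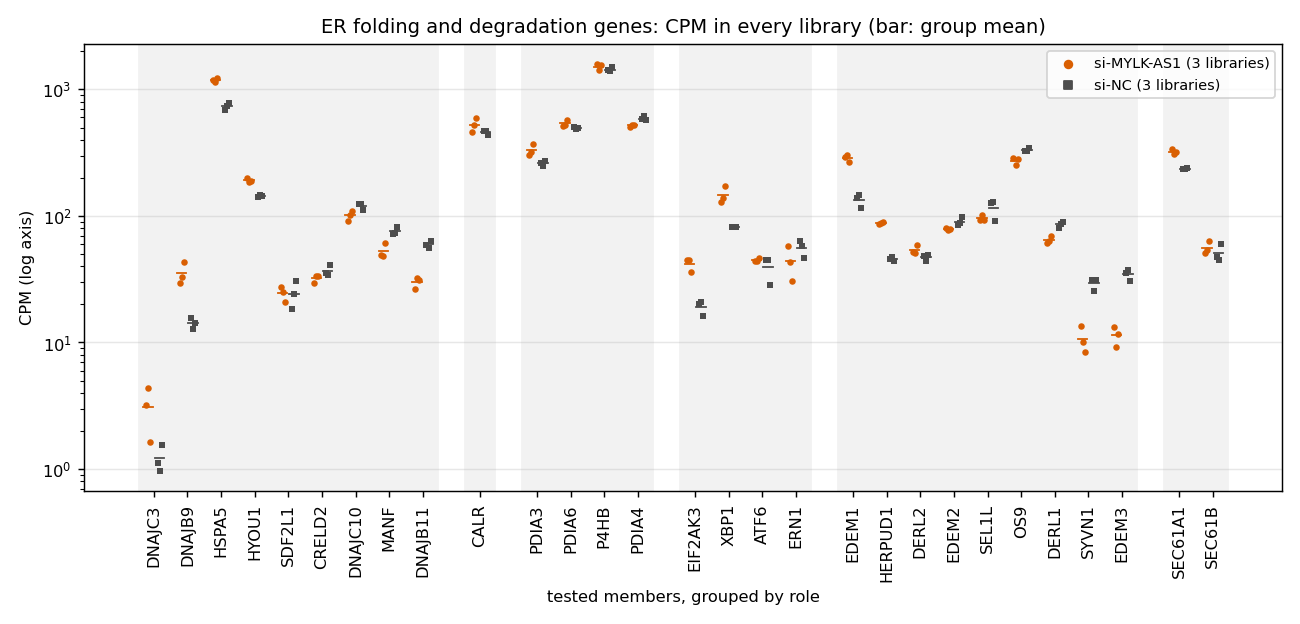
CPM on a log axis of the 29 tested members in every library, with orange circles for si-MYLK-AS1 and grey squares for si-NC and a bar at each group mean (n = 3 each). HSPA5 lies at 1185 CPM on average in si-MYLK-AS1 and 735 CPM in si-NC, and EDEM3 and SYVN1 lie lower in si-MYLK-AS1.

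HSPA5 codes for BiP, the HSP70 of the ER that binds unfolded chains and holds the sensors inactive. It had 1182, 1150 and 1224 CPM in si-MYLK-AS1 replicates 1 to 3, against 688, 734 and 782 CPM in si-NC replicates 1 to 3. All knockdown libraries lay above all control libraries, with means of 1185 ± 36.9 and 735 ± 46.8 CPM (SD, n = 3 each), a ratio of 1.61. The log2 fold change was 0.69 (SE 0.09, adjusted p = 8.28e-06). The gene lies on chromosome 9 from 125234853 to 125241330 on the minus strand (GENCODE release 29, GRCh38), and no exon of another gene overlaps its exons. Per kilobase of annotated exon it stood at 303 ± 9.44 CPM in si-MYLK-AS1 and 188 ± 12.0 CPM in si-NC. The disulfide isomerase P4HB stood at 286 ± 16.8 CPM per kilobase in si-MYLK-AS1 and 270 ± 11.2 CPM per kilobase in si-NC. P4HB therefore led HSPA5 in si-NC, while in si-MYLK-AS1 the ranges of mean ± SD of the pair overlapped. CALR, PDIA4 and PDIA6 followed in both groups, between 121 and 194 CPM per kilobase. Summed over the members, the level was 6710 ± 234 CPM in si-MYLK-AS1 and 5842 ± 62.3 CPM in si-NC, a difference of 868 CPM of which HSPA5 made up 451 CPM.

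Among the partners of BiP, some rose and others fell. HYOU1, the large HSP70-like protein that exchanges the nucleotide of BiP, had 201, 186 and 190 CPM in si-MYLK-AS1, against 141, 146 and 143 CPM in si-NC. The groups did not overlap (log2 fold change 0.42, SE 0.09, adjusted p = 0.000838). DNAJB9, the J-domain protein ERdj4, which recruits BiP to IRE1 and to degradation substrates, had 29.8, 32.9 and 43.4 CPM in si-MYLK-AS1, against 15.6, 12.8 and 14.2 CPM in si-NC. Its knockdown mean was 2.49 times the control mean, highest in replicate 3 (log2 fold change 1.31, SE 0.16, adjusted p = 4.42e-06). DNAJB11, the J-domain protein ERdj3, which delivers nascent chains to BiP, had 26.5, 32.6 and 31.1 CPM in si-MYLK-AS1, against 59.4, 55.9 and 63.7 CPM in si-NC. All knockdown libraries lay well under the control libraries, at 0.504 of the control mean (log2 fold change -0.99, SE 0.12, adjusted p = 5.37e-06). Exons of genes on the opposite strand overlap 15.3% of the exon bases of DNAJB11 and 6.45% of those of DNAJB9. A gene on its own strand overlaps 7.87% of the exon bases of DNAJB11. Whether reads were counted by strand is not given in the sources used here.

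DNAJC3, the J-domain protein p58IPK, was near the limit of detection with 35, 42 and 12 reads in si-MYLK-AS1, against 10, 10 and 17 reads in si-NC. In CPM this was 3.20, 4.40 and 1.64 in si-MYLK-AS1, against 1.11, 0.964 and 1.56 in si-NC, so that replicates 3 of both groups nearly met. Its log2 fold change was 1.36 (SE 0.39, adjusted p = 0.00996), and the call was lost without si-MYLK-AS1 replicate 2 (adjusted p = 0.0781) or si-NC replicate 2 (adjusted p = 0.0512). MANF, a small secreted stress protein that binds BiP, had 49.0, 48.0 and 61.3 CPM in si-MYLK-AS1, against 71.4, 72.7 and 82.1 CPM in si-NC. It fell without overlap of the groups (log2 fold change -0.52, SE 0.12, adjusted p = 0.00168). DNAJC10, the reductase ERdj5 that opens disulfides before degradation, fell by 0.25 on the log2 scale (SE 0.10, adjusted p = 0.0477). That call was lost when si-MYLK-AS1 replicate 1 or 2 or si-NC replicate 1 or 2 was left out (adjusted p = 0.118 to 0.199), with DESeq2 (adjusted p = 0.0590) and without filtering (adjusted p = 0.0701). SDF2L1, which works with ERdj3, averaged 24.5 ± 3.21 CPM in si-MYLK-AS1 and 24.3 ± 6.12 CPM in si-NC, with a 95% interval of its log2 fold change from -0.32 to 0.34. CRELD2, a stress-induced ER protein, had a log2 fold change of -0.20 (interval -0.45 to 0.05).

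The lectin chaperones and HSP90B1 were only partly measurable. CALR, calreticulin, had 463, 521 and 591 CPM in si-MYLK-AS1, against 466, 466 and 438 CPM in si-NC. The groups overlapped through si-MYLK-AS1 replicate 1 (log2 fold change 0.20, adjusted p = 0.105), and without that library the adjusted p was 0.0348. CANX, the membrane-bound calnexin, was listed at 0 in all 6 libraries. HSP90B1, the ER HSP90 known as GRP94, had 3, 2 and 7 reads in si-MYLK-AS1, against 2, 12 and 7 reads in si-NC. Its annotated copy HSP90B2P had 346, 316 and 214 reads in si-MYLK-AS1, against 317, 412 and 397 reads in si-NC, more than HSP90B1 itself in every library. CANX and HSP90B1, like TMX2 and SRPRB, which were also listed at 0 in all 6 libraries, are genes that most cells use, so a 0 in this table is given as listed and not as absence of the transcript. DERL3 had 1 to 3 reads in every library. These 3 members were not tested, and no fold change is given for them.

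The disulfide isomerases form and shuffle disulfide bonds. Of 4 tested, 1 rose and 3 did not pass. PDIA3, the isomerase that works with calnexin and calreticulin, had 304, 321 and 371 CPM in si-MYLK-AS1, against 262, 250 and 269 CPM in si-NC. It rose without overlap (log2 fold change 0.35, SE 0.09, adjusted p = 0.00609), but its near-identical copy PDIA3P1 took 149, 149 and 167 CPM in si-MYLK-AS1 and 137, 129 and 135 CPM in si-NC, so reads of the pair may be shared. P4HB, the main isomerase of the ER, averaged 1516 ± 89.0 CPM in si-MYLK-AS1 and 1434 ± 59.4 CPM in si-NC, with a 95% interval of its log2 fold change from -0.09 to 0.25. PDIA6 had 0.12 (interval -0.05 to 0.29) and PDIA4 -0.18 (interval -0.35 to -0.01, adjusted p = 0.0981). PDIA4 passed without si-NC replicate 3 (adjusted p = 0.0497), with library totals alone (0.0477) and with a filter of 5 CPM in 3 libraries (0.0421).

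Of the sensors, EIF2AK3 alone passed the test. EIF2AK3 codes for PERK, and it had 44.6, 44.5 and 36.2 CPM in si-MYLK-AS1, against 20.1, 21.0 and 16.1 CPM in si-NC. The lowest knockdown library stood above the highest control library, and the ratio of the means was 2.19 (log2 fold change 1.13, SE 0.14, adjusted p = 6.54e-06). EIF2AK3 lies on chromosome 2 from 88556741 to 88627576 on the minus strand, and exons of opposite-strand genes overlap 15.1% of its exon bases. ATF6 had 44.1, 44.1 and 46.7 CPM in si-MYLK-AS1, against 44.9, 45.2 and 28.6 CPM in si-NC. Its groups overlapped, since si-NC replicates 1 and 2 stood with the knockdown libraries and si-NC replicate 3 was lower (log2 fold change 0.19, interval -0.11 to 0.48, adjusted p = 0.342). ERN1, the gene of IRE1, had 58.3, 43.4 and 30.4 CPM in si-MYLK-AS1, against 63.2, 57.4 and 46.6 CPM in si-NC. These groups overlapped as well, with a log2 fold change of -0.33 (interval -0.72 to 0.07, adjusted p = 0.221). ERN1 passed as lower without si-MYLK-AS1 replicate 1 (-0.58, adjusted p = 0.0131), with the repeat number as a block (-0.37, adjusted p = 0.0217) and without filtering (-0.32, adjusted p = 0.0442). The differences between the sensors were not tested.

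XBP1, the transcription factor whose mRNA IRE1 splices, had 129, 140 and 173 CPM in si-MYLK-AS1, against 82.2, 81.0 and 81.9 CPM in si-NC. It rose in every knockdown library above the narrow control range, most in replicate 3, to 147 ± 22.7 CPM in si-MYLK-AS1, against 81.7 ± 0.607 CPM in si-NC (SD, n = 3 each). The log2 fold change was 0.85 (SE 0.11, adjusted p = 8.28e-06). XBP1 lies on chromosome 22 from 28794555 to 28800597 on the minus strand. Counts per gene do not separate its spliced from its unspliced mRNA.

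**Figure D3:**
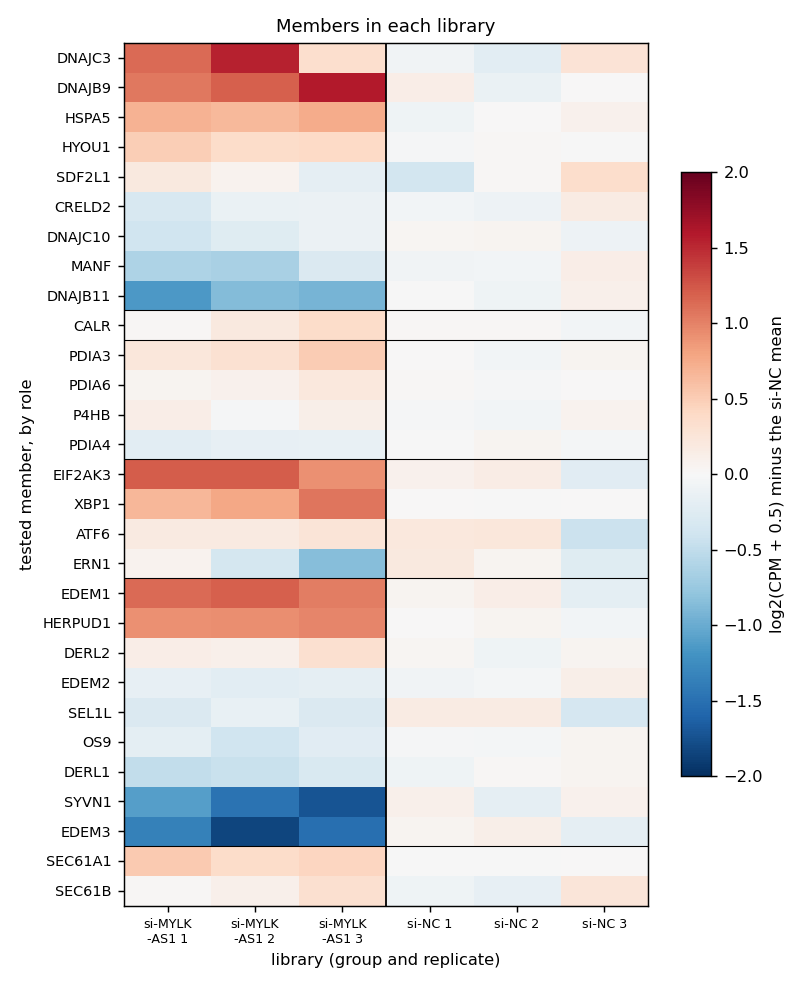
log2(CPM + 0.5) of each tested member in each library minus the mean of the si-NC libraries, red above and blue below, with si-MYLK-AS1 replicates 1 to 3 left of si-NC replicates 1 to 3. HERPUD1 is alike in all 3 si-MYLK-AS1 libraries, while ERN1 is lowest and XBP1 and DNAJB9 are highest in si-MYLK-AS1 replicate 3.

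The members together took 0.659%, 0.651% and 0.676% of all reads in si-MYLK-AS1, against 0.587%, 0.589% and 0.588% in si-NC. The median deviation of the members from the si-NC mean on the log2(CPM + 0.5) scale was 0.0746, 0.0788 and 0.211 in si-MYLK-AS1 replicates 1 to 3, highest in the library that stood apart on the second component, and between -0.00494 and 0.0121 in si-NC.

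Of 9 tested genes of degradation from the ER, 2 rose, 4 fell and 3 did not pass, beside 21.3% up and 20.7% down among all tested genes. Calls in both directions were thus also what the whole table showed. EDEM1, which trims mannose from misfolded glycoproteins, had 291, 304 and 268 CPM in si-MYLK-AS1, against 138, 145 and 116 CPM in si-NC. All knockdown libraries lay above the controls at 2.16 times their mean (log2 fold change 1.11, SE 0.10, adjusted p = 1.46e-07), the lowest adjusted p among the members. HERPUD1, a stress-induced membrane protein of the HRD1 complex, had 85.9, 87.3 and 89.8 CPM in si-MYLK-AS1, against 45.6, 47.4 and 43.8 CPM in si-NC. Its libraries barely spread within a group, and the groups were far apart (log2 fold change 0.94, SE 0.10, adjusted p = 1.17e-06). EDEM1 lies on chromosome 3 from 5187646 to 5219957 and HERPUD1 on chromosome 16 from 56932048 to 56944863, both on the plus strand. A gene on the opposite strand overlaps 9.66% of the exon bases of EDEM1, and no other gene overlaps those of HERPUD1.

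EDEM3, a relative of EDEM1 with mannosidase activity, had 13.1, 9.22 and 11.7 CPM in si-MYLK-AS1, against 35.7, 37.5 and 30.4 CPM in si-NC. It fell furthest of all members, to 0.329 of the control mean (log2 fold change -1.60, SE 0.16, adjusted p = 4.73e-07). SYVN1, the gene of the ubiquitin ligase HRD1, had 13.4, 10.2 and 8.46 CPM in si-MYLK-AS1, against 31.4, 25.7 and 31.1 CPM in si-NC. Its highest knockdown library stood far under its lowest control library, at 0.363 of the control mean (log2 fold change -1.44, SE 0.17, adjusted p = 3.48e-06). EDEM3 lies on chromosome 1 from 184690231 to 184754913 and SYVN1 on chromosome 11 from 65121780 to 65134533, both on the minus strand. Exons of other genes overlap 8.39% of the exon bases of SYVN1 on its own strand and 6.48% on the other, and none overlap those of EDEM3.

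SEL1L, the partner that stabilises HRD1, had 92.8, 103 and 93.4 CPM in si-MYLK-AS1, against 127, 128 and 90.4 CPM in si-NC. The groups overlapped through si-NC replicate 3 (log2 fold change -0.26, interval -0.49 to -0.02, adjusted p = 0.0944), and without that library the change was -0.41 (adjusted p = 0.00182). DERL1, a membrane protein of the channel through which substrates leave the ER, fell to 64.4 ± 4.55 CPM in si-MYLK-AS1, against 85.6 ± 4.54 CPM in si-NC (log2 fold change -0.41, SE 0.10, adjusted p = 0.0033). Its paralog DERL2 had a log2 fold change of 0.19 (interval -0.03 to 0.41), and EDEM2 one of -0.19 (interval -0.38 to 0.00). OS9, the lectin that reads trimmed glycans, fell to 274 ± 19.6 CPM in si-MYLK-AS1, against 330 ± 12.4 CPM in si-NC (log2 fold change -0.27, SE 0.09, adjusted p = 0.0205). The OS9 call was lost without si-MYLK-AS1 replicate 2 (adjusted p = 0.134) or si-NC replicate 2 (adjusted p = 0.0512).

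Of the translocon subunits, SEC61A1 forms the channel pore. It had 341, 307 and 321 CPM in si-MYLK-AS1, against 236, 236 and 239 CPM in si-NC, and rose without overlap (log2 fold change 0.45, SE 0.09, adjusted p = 0.000454). The small subunit SEC61B averaged 56.0 ± 6.30 CPM in si-MYLK-AS1 and 50.6 ± 7.82 CPM in si-NC, with an interval of its log2 fold change from -0.11 to 0.39.

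Set beside the promoter windows printed above, 5 of the 7 members with an exact ERSE were tested. HSPA5 and XBP1 rose, and CALR, PDIA6 and CRELD2 did not pass. Of the 3 with ERSE-II, HYOU1 and HERPUD1 rose and SDF2L1 did not pass. Of the 8 tested members with either element 4 rose and 0 fell, and of the 19 with a window and neither element 5 rose and 6 fell, beside 21.3% up and 20.7% down among all tested genes. With so few genes, nothing is read from the difference between these counts, which was not tested. Of the members that rose by more than HSPA5, HERPUD1 and XBP1 held a match, and DNAJC3, DNAJB9, EIF2AK3 and EDEM1 had no match to any of the searched elements in their windows.

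The same questions were put to 130 other genes of the pathway, listed by function, of which 122 were tested. Of these 40 rose, 21 fell and 61 did not pass, so that 61 of 122 were called, beside 42.0% of all tested genes, and without si-MYLK-AS1 replicate 2 the numbers were 31 and 15. Their median log2 fold change was 0.11. The list of stress regulators and effectors had 8 of 20 up and 4 down, with a median of 0.25. Among all tested genes 21.3% were up and 20.7% down. TRIB3, a pseudokinase induced by PERK signalling, rose to 124 ± 9.29 CPM in si-MYLK-AS1, against 59.0 ± 1.80 CPM in si-NC (log2 fold change 1.06, SE 0.10). PPP1R15A, the phosphatase subunit GADD34 that removes the phosphate PERK adds, rose by 0.94 (SE 0.11), and EIF2S1, the gene of eIF2 alpha itself, by 0.65 (SE 0.10). MBTPS1, the Golgi protease that makes the first cut in ATF6, fell (-0.42, SE 0.09), as did the cell death gene BBC3 (-0.69, SE 0.16) and NUPR1 (-1.58, SE 0.42), which was under 3 CPM in each library. The other calls in this list were ATF3 (1.00, SE 0.17), DDIT3 (0.62, SE 0.17), SESN2 (0.51, SE 0.14), ATF4 (0.37, SE 0.09) and CREB3L2 (0.37, SE 0.12), which rose, and VLDLR (-0.39, SE 0.13), which fell. CHAC1, a gene induced by ATF4, had 5, 1 and 2 reads in si-MYLK-AS1, against 7, 15 and 8 reads in si-NC. These counts were lower in si-MYLK-AS1 but did not pass the low-count filter, so CHAC1 was not tested.

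Other folding enzymes had 9 of 32 up and 5 down, so that 43.8% were called, near the 42.0% of all tested genes. ERO1A, the oxidase that recharges the disulfide isomerases, rose to 209 ± 2.39 CPM in si-MYLK-AS1, against 114 ± 7.44 CPM in si-NC (log2 fold change 0.87, SE 0.09, adjusted p = 8.27e-07). TXNDC11 (0.77, SE 0.10) and PDIA5 (0.46, SE 0.09), both thioredoxin-like, rose with it, and TXNDC12 (-0.68, SE 0.10), ERP29 (-0.37, SE 0.09) and CNPY2 (-0.32, SE 0.10) fell. The number that fell was 3 without si-MYLK-AS1 replicate 2, 3 with DESeq2 and 2 without si-NC replicate 2. Genes of N-glycan transfer and trimming had 4 of 18 up and 6 down, with a median of -0.15, beside 21.3% up and 20.7% down among all tested genes. MLEC, malectin, which binds glycans early in their trimming, fell to 232 ± 8.96 CPM in si-MYLK-AS1, against 585 ± 63.7 CPM in si-NC (log2 fold change -1.33, SE 0.10, adjusted p = 1.42e-08). The oligosaccharyltransferase subunits TUSC3 (-1.13, SE 0.13) and MAGT1 (0.83, SE 0.14), which take the same place in alternative forms of the complex, moved in opposite directions. GANAB, the catalytic subunit of glucosidase II, fell (-0.49, SE 0.09), and the transferase subunits OSTC (0.85, SE 0.14) and STT3B (0.31, SE 0.09) rose.

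Other degradation genes had 12 of 31 up and 3 down, beside 21.3% up and 20.7% down among all tested genes. Without si-MYLK-AS1 replicate 2 the number up was 7. CCDC47, an ER membrane protein (0.81, SE 0.10), UFD1, the cofactor of the VCP ATPase that pulls substrates out of the membrane (0.73, SE 0.11), and RNF139, a ubiquitin ligase of the ER membrane (0.74, SE 0.12), rose. The ubiquitin-conjugating enzyme UBE2G2 (-0.47, SE 0.11), the ligase TMEM129 (-0.44, SE 0.13) and the rhomboid protease RHBDD1 (-0.39, SE 0.13) fell. Translocon and targeting genes had 7 of 21 up and 3 down, so that 47.6% were called, beside 42.0% of all tested genes. Among them SSR1 (0.73, SE 0.10), a subunit of the translocon-associated complex, the small channel subunit SEC61G (0.94, SE 0.14) and SRP19 of the signal recognition particle (0.95, SE 0.15) rose. SRP68 (-0.38, SE 0.09) of the same particle, SSR2 (-0.30, SE 0.09) and the signal peptidase subunit SPCS3 (-0.33, SE 0.13) fell. The number up was 4 without si-MYLK-AS1 replicate 2, si-MYLK-AS1 replicate 3 or si-NC replicate 2, and the number down was 1 without si-MYLK-AS1 replicate 2.

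**Figure D4:**
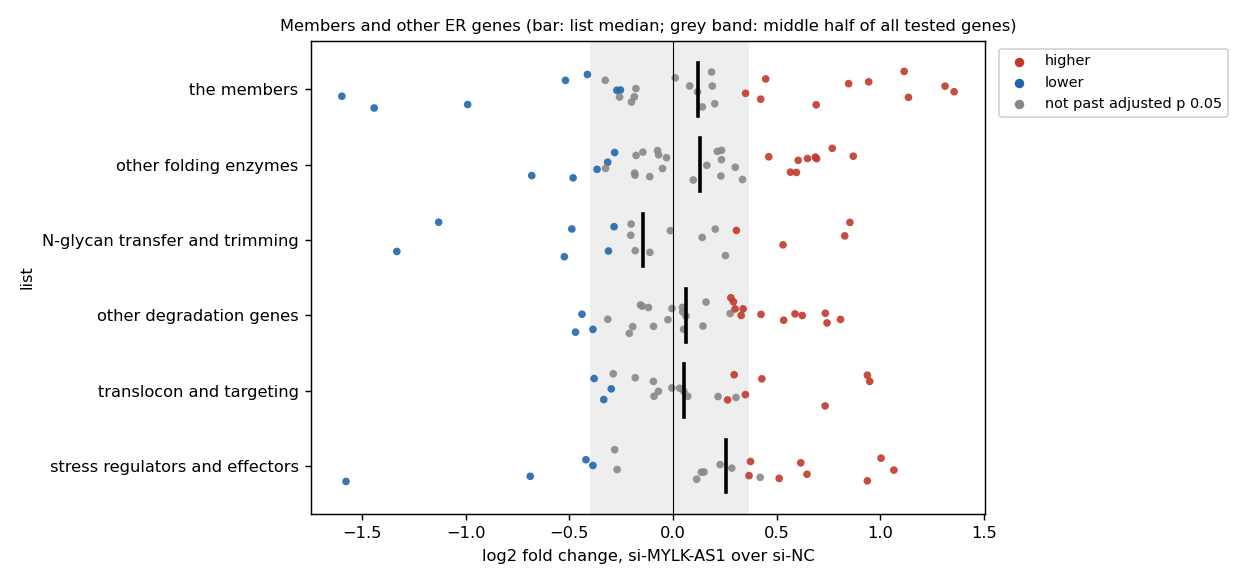
log2 fold change (si-MYLK-AS1 over si-NC) of every tested gene of the member list and of the other 5 ER lists, with red for higher, blue for lower and grey for not past an adjusted p of 0.05. The medians (black bars) lie between -0.15 for N-glycan genes and 0.25 for stress regulators, inside the grey band between the lower and upper quartiles of all tested genes, from -0.40 to 0.36.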

How the data were processed

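Per the labels' protocols, the 6 libraries were made with a kit for Ion Proton sequencing. The authors deposited whole-number counts for each gene symbol, not normalised. The submitters' processing notes name GRCh38 as the build. Which aligner, counter and annotation were used, and whether strand was used, is not given in the sources used here. Columns were matched to samples by title.

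Differential expression was fitted over all genes with edgeR 4.0.16 in R 4.3.3 (filterByExpr, TMM factors, robust quasi-likelihood fit, two-sided F test, Benjamini-Hochberg adjustment over 15391 genes, threshold 0.05), and every adjusted p printed comes from this fit unless another tool is named. The SE is the log2 fold change divided by the square root of F, and an interval is the estimate plus or minus 1.96 SE, both approximations. CPM use TMM-adjusted library sizes. Levels per kilobase use all annotated exon bases of GENCODE release 29. Floors cover counting error only. Of 183 list symbols, 5 were matched through an older symbol. The members and lists were chosen with earlier results of these data known. Values per library are given for MYLK-AS1, for members past the threshold without overlap at a log2 change of 0.5 or more either way, and for the sensors, HSPA5 and XBP1. They are also given for some other members, among them HYOU1, PDIA3, SEC61A1 and members whose libraries disagree, chosen after their values were seen. From each other list the 3 genes with the lowest p in each direction are named, and from the stress list all called genes and CHAC1.

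Alternatives were RLE, upper quartile or no factors, no filter, 5 CPM in 3 libraries, DESeq2 1.42.0, limma-voom (limma 3.58.1), each library left out, and the repeat number as a block. Tested on counts simulated for these 15391 genes, edgeR found 25 of 67 genes given a log2 change of 0.5, 48 of 67 given 1 and 64 of 66 given 2, with 11 false calls among 148. No other genes were changed in that simulation, while 42.0% of tested genes were called in the data, so these shares need not hold here. No pair of libraries within a group matched within sampling noise (chi-square per degree of freedom of at least 2.38).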

Additional observations from a re-analysis of the deposited data

How the results depend on the processing

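Of the 29 tested members, 22 kept their direction of call and side of the threshold under the alternatives that gave a value (up to 14 each). DNAJC3, DNAJC10 and OS9 lost their calls and CALR, PDIA4, ERN1 and SEL1L gained one under the settings named with them, and no called member changed direction. The number of members up ranged from 9 to 11 and down from 5 to 9 when single libraries were left out. The median log2 fold change of the members, 0.12, was 0.0902 with upper quartile factors, 0.0873 without factors and 0.0651 with the filter of 5 CPM in 3 libraries, where DNAJC3 was not tested, and 0.0587 to 0.151 when single libraries were left out. Over all genes, upper quartile factors gave 3059 up and 3362 down and no factors 3040 and 3381, against 3274 and 3183. MYLK-AS1 stayed lower, at -2.95 to -1.74, in all alternatives but the 5 CPM filter, which removed it. With the repeat number as a replicate block 10 members rose and 8 fell, ERN1 being the added call. Deviations of libraries with the same repeat number correlated at -0.05, 0.08 and 0.06, against -0.12 to 0.07 for libraries with different numbers. With 3 libraries in each group this cannot tell whether the repeats were paired, and the labels do not say. MYLK-AS1, DNAJC3 and other genes with few reads per library are limited by depth.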

Other observations

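The exact ERSE or ERSE-II letters were also found in the promoter windows of 34 genes outside the list, 17 of them tested, a group looked at after the data were seen. Of these 17, 4 rose, 4 fell and 9 did not pass, beside 4 up and 0 down among the 8 tested members with either element. Both shares called lie near the 42.0% of all tested genes, and the difference between the groups was not tested. FICD, the ER enzyme that attaches and removes AMP on BiP, holds an ERSE and rose to 19.6 ± 0.768 CPM in si-MYLK-AS1, against 8.66 ± 1.5 CPM in si-NC (log2 fold change 1.18, SE 0.17, adjusted p = 3.16e-05). SERP1, a small protein of the translocon that is induced by ER stress, holds an ERSE and rose by 0.59 (SE 0.12). It was already counted among the other folding enzymes above. NUCB1, a calcium-binding protein of the Golgi, holds an ERSE-II and fell (-0.76, SE 0.09). The other called genes were RAD9A (-1.50, SE 0.26), SHCBP1 (-0.70, SE 0.12) and TMEM120A (-0.47, SE 0.12), which fell. ZNF17 (0.62, SE 0.24) and SETD3 (0.35, SE 0.10) rose. ALG12, a mannosyltransferase of the ER, averaged 27.6 ± 0.216 CPM in si-MYLK-AS1 and 28.1 ± 2.41 CPM in si-NC and did not pass (adjusted p = 0.878).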
